A study of Oryza sativa with 9 samples.

Results

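The 6 genes described here encode subunits of Polycomb repressive complex 2 (PRC2) in rice, measured in developing seeds of 3 genotypes. They are FIE1, FIE2, EMF2a, EMF2b, CLF and EZ1, chosen by name and locus identifier as the known rice genes for 3 of the core subunits, and all 6 are among the 31263 loci of the deposited table. RNA came from dehulled seeds collected 10 to 14 days after flowering. Plants grew at 27 °C under a 12 h light and 12 h dark cycle, and there were 3 biological repeats of each genotype. The first genotype was the wild type, whose cultivar is not stated in the sources used here. The second was EM1084, a mutant in which OsTudor-SN, a protein of nuclease-like and Tudor domains that binds RNA, carries the change E503K. The last, pHL8042/EM1084, is EM1084 with an added wild type OsTudor-SN copy and is called the complemented line here. It carries both the mutant allele and the transgene, and 1 such line was profiled. The promoter of the transgene is not stated in the sources used here.

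PRC2 methylates a lysine in the tail of histone H3, and the mark keeps genes silent through cell divisions. The complex joins an E(z)-type methyltransferase (CLF or EZ1 in rice), a Su(z)12-type zinc finger protein (EMF2a or EMF2b), an Esc-type WD40 protein (FIE1 or FIE2) and an MSI1-type WD40 protein. In cereals it restrains early endosperm proliferation and acts in flowering, and rice FIE1 is known as an endosperm gene expressed from the maternal allele while FIE2 is active in many organs.

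The 6 genes lie on 5 chromosomes, with coordinates as the table prints them, since the genome build is not stated in the sources used here. FIE2 (LOC_Os08g04270) spans 2077234 to 2083327 and FIE1 (LOC_Os08g04290) spans 2095644 to 2100604, both on the plus strand of chromosome 8 with 12316 bases between them. EMF2a (LOC_Os04g08034) spans 4274885 to 4290697 on the plus strand of chromosome 4. EMF2b (LOC_Os09g13630) spans 7925560 to 7938161 on the minus strand of chromosome 9. CLF (LOC_Os06g16390) spans 9353713 to 9362101 on the plus strand of chromosome 6, and EZ1 (LOC_Os03g19480) spans 10952133 to 10959835 on the minus strand of chromosome 3. Transcript lengths derived from the table ran from 1748 bases for FIE1 to 3485 for EMF2a. FIE1 and FIE2 are related copies, as are the members of both other pairs, and how reads matching a pair were counted is not stated in the sources used here.

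Levels are RPKM, read numbers divided by transcript length and by the mapped reads of the library, so different genes can be compared within a library. Mapped totals derived from the table ran from 5778627 to 10551055 reads in wild type, from 12805472 to 15630870 in EM1084 and from 17022681 to 18449248 in the complemented line, so depth and genotype cannot be told apart. Over the 15450 genes tested, EM1084 had a median log2 fold change of 1.06 relative to wild type. The complemented line had medians of -0.34 relative to EM1084 and 0.73 relative to wild type. Each change below is therefore also given relative to this median. Of all calls between EM1084 and wild type, 94% were higher in EM1084 when the deposited RPKM were used and 53.4% after scaling by median ratios (median of ratios), which sets the typical gene level between libraries. In the complemented line 18.3% of calls against EM1084 and 90.7% of calls against wild type were higher, and these shares were 49.8% and 53.1% under scaling by median ratios. The 6 endosperm marker genes summed to 74000 to 82900 RPKM in wild type, 38900 to 40800 in EM1084 and 89400 to 94400 in the complemented line, and none was at 0 in any library. These sums rest on GluA1, GluA2 and LOC_Os05g41970, which fell in EM1084, whereas Wx (1170 ± 69.3 in wild type and 1180 ± 103 in EM1084) and BEI (902 ± 57.8 and 873 ± 43.6) were not called and LOC_Os07g08420 rose from 69.3 ± 2.71 to 128 ± 7.86 RPKM. After scaling by median ratios all 6 were lower in EM1084. Under quantile normalization (libraries forced to 1 common distribution) 3 were higher, 1 was lower and 2 did not pass, so their direction depends on the scaling. The 5 embryo and aleurone markers summed to 558 to 636, 1500 to 1790 and 1540 to 1990 RPKM, with only OSH1, in 1 wild type library, at 0. Their members went opposite ways: OLE18 rose from 66.5 ± 2.84 RPKM in wild type to 986 ± 83.2 in EM1084, while LOC_Os11g26790, the largest of them in wild type, fell from 429 ± 47.0 to 56.2 ± 3.02. The 5 green tissue markers summed to 2.75 to 3.49, 4.52 to 5.91 and 4.44 to 7.11 RPKM, with 1 of them at 0 in a wild type and in an EM1084 library. The part of these tissue markers in the results below was not tested, and in bulk seed RNA fewer cells of a type and less RNA per cell cannot be told apart.

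EMF2b was the most abundant of the 6 genes in wild type at 17.2 ± 1.2 RPKM (SD, n = 3). CLF followed at 9.47 ± 0.883, EMF2a at 7.12 ± 0.736, FIE2 at 5.41 ± 0.832, EZ1 at 5.0 ± 0.156 and FIE1 at 4.35 ± 1.91 RPKM. Ranges of neighbours in this order were separate down to FIE2, whereas FIE2, EZ1 and FIE1 overlapped. In EM1084 the order was CLF, FIE2, EMF2b, EMF2a, EZ1 and FIE1, and the first 3 overlapped with their neighbours while the others were separate. In the complemented line it was CLF, EMF2b, FIE2, EMF2a, EZ1 and FIE1, where the first 3 overlapped, EMF2a and EZ1 overlapped, and FIE1 lay below all other members in every library. FIE2 thus stood at the level of CLF and EMF2b in both lines carrying the mutant allele and far below them in wild type.

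**Figure D1:**
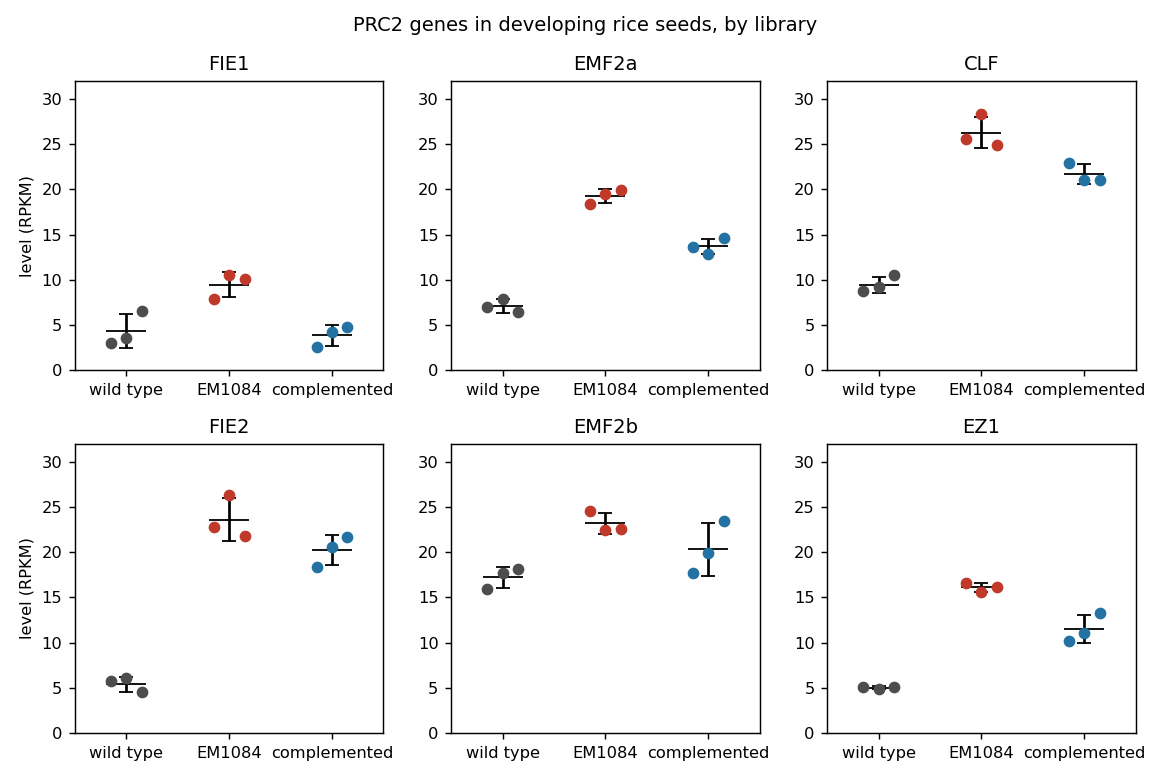
RPKM of each PRC2 gene in each library, with 3 libraries per genotype as points and the mean ± SD as bars. FIE2 sat between 4.48 and 6.07 RPKM in wild type and between 18.4 and 26.3 in the other lines, while FIE1 stayed at or below 10.5 RPKM in all libraries.

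The comparison of EM1084 with wild type asked which PRC2 transcripts differ with the Tudor-SN mutation. All 6 genes were called higher in EM1084 on RPKM as deposited, as were 82.7% of all genes tested while 5.33% were lower, so the count itself does not set them apart. The share of all genes whose levels did not overlap between genotypes was not counted. Separations of member levels given below therefore do not set the members apart either. The median log2 fold change of the 6 genes was 1.35, next to 1.06 over all genes. With 0.1 instead of 1 added to RPKM before taking logs, these medians were 1.45 and 1.47, so the members did not rise more than the typical gene there. Under scaling by median ratios 1 member was higher (FIE2), 1 was lower (EMF2b) and 4 did not pass, against 31.4% of all genes higher and 27.4% lower. Under quantile normalization, which forces the libraries to 1 common distribution, FIE2 and EZ1 were higher and EMF2b lower, against 28.1% and 27.3% of all genes. With totals counted outside loci of at least 1000 RPKM, 4 members were higher and EMF2b lower, against 51.7% and 16.1%.

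FIE2, the broadly expressed Esc-type subunit, read 5.69, 6.07 and 4.48 RPKM in the wild type libraries and 22.8, 26.3 and 21.8 in EM1084. Every EM1084 library lay above every wild type library. The fitted fold of RPKM + 1 was 3.85 (log2 fold change 1.94, SE 0.12, limma adjusted p = 1.2e-08), which is 0.88 above the median of all genes and at the 87.8th percentile of them. FIE2 also rose under scaling by median ratios (log2 fold change 0.66, adjusted p = 0.00024), quantile normalization (0.73, adjusted p = 8.4e-05) and with totals outside abundant loci (1.10, adjusted p = 3.4e-06). Its rank by level moved in the same direction, from the 67.2nd to 71.7th percentile of tested genes in wild type to the 79.5th to 83.0th in EM1084.

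FIE1, the endosperm copy, read 2.98, 3.53 and 6.53 RPKM in wild type, from 55, 57 and 66 derived reads. Wild type 3, the library with the fewest reads, stood apart from the other two: its exact Poisson 95% limits were 5.05 to 8.31 RPKM, against 2.25 to 3.88 and 2.67 to 4.57. In EM1084 FIE1 read 7.86, 10.5 and 10.1 RPKM, all above the wild type values. This gave a log2 fold change of 1.02 (SE 0.23, adjusted p = 0.0011), 0.05 below the median of all genes, and 1.29 without wild type 3. Under scaling by median ratios it was -0.19 (adjusted p = 0.54). Its rank by level was the 56.1st to 74.8th percentile in wild type and the 55.6th to 63.1st in EM1084.

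EMF2b, a Su(z)12-type subunit known from rice flower development, read 15.9, 17.7 and 18.1 RPKM in the wild type libraries and 24.6, 22.4 and 22.6 in EM1084. The groups did not overlap, and the log2 fold change of 0.41 (SE 0.11, adjusted p = 0.0041) was the smallest of the 6 genes, 0.66 below the median of all genes. Its direction depended on scaling: it turned to -0.94 under scaling by median ratios (adjusted p = 1e-05), -0.72 under quantile normalization (adjusted p = 6.7e-05) and -0.48 with totals outside abundant loci (adjusted p = 0.0014). By rank EMF2b lay between the 87.5th and 89.5th percentiles in wild type and between the 80.2nd and 82.1st in EM1084, so it lost places among the genes while its RPKM rose.

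EMF2a, its paralog and in rice also known as maternally expressed in endosperm, read 6.99, 7.91 and 6.46 RPKM in the wild type libraries and 18.4, 19.5 and 19.9 in EM1084 (log2 fold change 1.32, SE 0.11, adjusted p = 1e-07). CLF, an E(z)-type methyltransferase, read 8.77, 9.17 and 10.5 against 25.6, 28.3 and 24.9 RPKM (a log2 fold change of 1.38, SE 0.10, adjusted p = 4.3e-08). EZ1, the other methyltransferase, read 5.03, 4.83 and 5.13 against 16.6, 15.6 and 16.1 RPKM (a log2 fold change of 1.51, SE 0.12, adjusted p = 5.5e-08). For these 3 genes every EM1084 library was above every wild type library, and the changes lay 0.26, 0.32 and 0.45 above the median of all genes. With 0.1 instead of 1 added to RPKM, the changes lay at -0.04, 0 and 0.20 relative to that median, so this excess depends on the added constant. Under scaling by median ratios the log2 fold changes were 0.03, 0.06 and 0.25, none of them called (adjusted p = 0.81, 0.68 and 0.052).

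**Figure D2:**
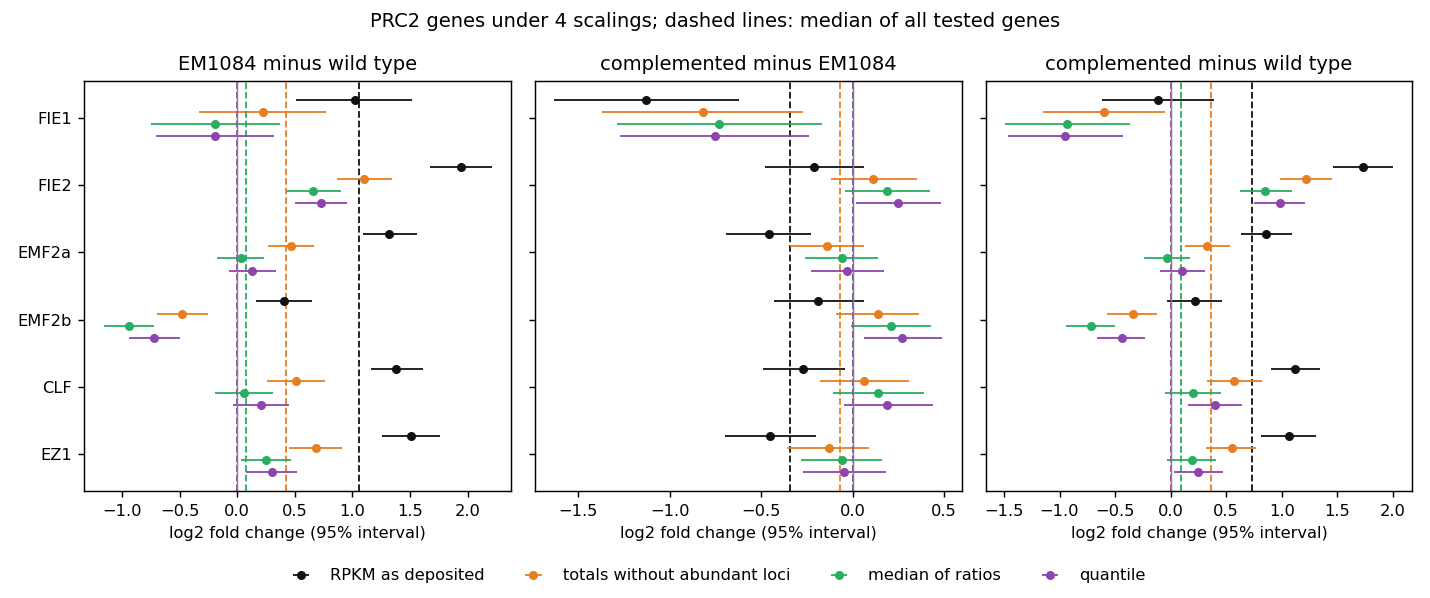
Log2 fold change of each PRC2 gene with its 95% interval from limma, for the 3 comparisons and 4 ways of scaling libraries, and dashed lines at the median of all tested genes under each scaling. FIE2 lies right of the dashed line of its scaling in both comparisons with wild type, EMF2b left of it, and FIE1 left of it in both comparisons of the complemented line.

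The complemented line against EM1084 asked which PRC2 transcripts move once the transgene is present. On RPKM as deposited 4 members fell and 2 did not pass, while 45.3% of all genes were called lower and 10.2% higher, and the members' median of -0.36 was close to the -0.34 of all genes. Under scaling by median ratios FIE1 was the one member called, next to 18.5% of all genes lower and 18.4% higher. Under quantile normalization FIE1 was lower and EMF2b higher, against 20.5% and 20.6%, and with totals outside abundant loci FIE1 was again the one called, against 23.3% lower and 16.8% higher.

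FIE1 fell from 7.86, 10.5 and 10.1 RPKM in EM1084 to 2.6, 4.22 and 4.74 in the complemented line. The groups did not overlap and the fold was 2.19 (log2 fold change -1.13, SE 0.23, adjusted p = 0.0012), which is 0.79 below the median of all genes and at the 8.85th percentile. It fell under scaling by median ratios (-0.73, adjusted p = 0.042), quantile normalization (-0.75, adjusted p = 0.023) and with totals outside abundant loci (-0.82, adjusted p = 0.022). In the same comparison 5 of the 6 endosperm markers rose, and all 6 did under scaling by median ratios, while 10.2% and 18.4% of all genes were higher. Whether the amount of endosperm has a part in the fall of FIE1 was not tested.

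FIE2 read 18.4, 20.6 and 21.7 RPKM in the complemented line, just below the 21.8 to 26.3 of EM1084, with a log2 fold change of -0.21 (interval -0.48 to 0.06, adjusted p = 0.16). EMF2b read 17.7, 19.9 and 23.4 RPKM, a range that overlapped that of EM1084 (log2 fold change -0.19, interval -0.43 to 0.06, adjusted p = 0.17). Without complemented 3 the EMF2b difference was called lower (-0.29, adjusted p = 0.047), and under quantile normalization it was called higher (0.27, adjusted p = 0.045), so no direction can be given. EMF2a fell to 13.6, 12.9 and 14.6 RPKM (a log2 fold change of -0.46, SE 0.11, adjusted p = 0.0027) and EZ1 to 10.2, 11.1 and 13.3 RPKM (-0.45, SE 0.12, adjusted p = 0.0048). Both values are within 0.12 of the median of all genes, and neither was called under scaling by median ratios (-0.06 for each, adjusted p = 0.65 and 0.7). CLF read 22.9, 21.0 and 21.1 RPKM, below all EM1084 libraries, with a log2 fold change of -0.27 (adjusted p = 0.043) that turned to 0.14 under scaling by median ratios (adjusted p = 0.37). Its call was also lost without any one of EM1084 1 (adjusted p = 0.081), EM1084 2 (0.16), EM1084 3 (0.057), complemented 2 (0.12) or complemented 3 (0.099).

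A last comparison, of the complemented line with wild type, asked which differences were found despite the transgene. It shares its libraries with the other comparisons and its values are not independent of them. Of the members, 4 were called higher (FIE2, EMF2a, CLF and EZ1) and 2 did not pass, next to 72% of all genes called higher and 7.37% lower. Under scaling by median ratios FIE2 was higher, FIE1 and EMF2b were lower and 3 did not pass, against 29% of all genes higher and 25.6% lower. Under quantile normalization FIE2 and CLF were higher and FIE1 and EMF2b lower, against 26.3% and 25.4%. With totals outside abundant loci 4 members were higher and EMF2b lower, against 47.2% and 16.1%.

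FIE2 stood at 20.2 ± 1.65 RPKM in the complemented line and 5.41 ± 0.832 in wild type (SD, n = 3), a fold of 3.32 (log2 fold change 1.73, SE 0.12, adjusted p = 7.6e-08). This is 1.00 above the median of all genes and at the 92.7th percentile. The call held under scaling by median ratios (0.85, adjusted p = 4e-05), quantile normalization (0.98, adjusted p = 8.6e-06) and with totals outside abundant loci (1.22, adjusted p = 2.1e-06).

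FIE1 stood at 3.85 ± 1.12 RPKM in the complemented line and 4.35 ± 1.91 in wild type, with overlapping libraries and a log2 fold change of -0.11 (interval -0.62 to 0.39, adjusted p = 0.67). Because most genes were higher in the complemented line, this value is 0.84 below the median of all genes, and FIE1 was called lower under scaling by median ratios (-0.93, adjusted p = 0.0093) and quantile normalization (-0.95, adjusted p = 0.0052). With totals outside abundant loci it was -0.60 (adjusted p = 0.055). By rank FIE1 lay at the 34.4th to 47.9th percentile of tested genes in the complemented line, below every library of wild type and of EM1084.

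EMF2b stood at 20.3 ± 2.9 RPKM in the complemented line, overlapping wild type (log2 fold change 0.22, adjusted p = 0.09), with a call as higher without complemented 1 (0.31, adjusted p = 0.023). It was called lower under scaling by median ratios (-0.72, adjusted p = 9.4e-05). CLF at 21.7 ± 1.08 RPKM (log2 fold change 1.12, adjusted p = 6.8e-07), EZ1 at 11.5 ± 1.56 (1.06, adjusted p = 3e-06) and EMF2a at 13.7 ± 0.851 (0.86, adjusted p = 9.9e-06) all lay above the wild type libraries. Relative to the median of all genes they were 0.39, 0.32 and 0.13, or 0.13, 0.12 and -0.12 with 0.1 instead of 1 added to RPKM. Under scaling by median ratios CLF and EZ1 were at 0.20 and 0.19 and EMF2a at -0.03, none of them called.

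Ratios of paralogs within a library are not changed by multiplying a library by 1 factor, as 3 of the 4 scalings do (quantile normalization can change them), and they were compared for the 3 pairs. How often ratios of other gene pairs differ among the genotypes was not counted. Differences and separations of ratios below therefore do not set these pairs apart from other genes. The FIE1 to FIE2 ratio was 0.524, 0.581 and 1.46 in wild type, 0.345, 0.399 and 0.462 for EM1084, and 0.141, 0.205 and 0.219 for the complemented line. The 3 genotypes did not overlap, with wild type highest and the complemented line lowest. On the log2 scale the means were -0.38 ± 0.80, -1.32 ± 0.21 and -2.40 ± 0.33, which differed among genotypes (exact permutation test with 280 splits, p = 0.00357, which is the smallest possible, and 0.0107 adjusted over 3 ratios). Each pair of genotypes gave p = 0.1 in an exact permutation test, the lowest possible with 3 libraries each, and 0.18 adjusted over 9 such pairs. The EM1084 minus wild type difference of -0.93 was -0.48 without wild type 3, the library in which FIE1 exceeded FIE2.

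The EMF2a to EMF2b ratio was 0.44, 0.446 and 0.356 in wild type, 0.751, 0.868 and 0.88 for EM1084, and 0.77, 0.651 and 0.624 for the complemented line. Wild type lay below both other lines, which overlapped each other. The log2 means were -1.27 ± 0.18, -0.27 ± 0.13 and -0.56 ± 0.16 (exact permutation p = 0.00714, adjusted 0.0107). EM1084 and the complemented line differed by -0.29 (exact permutation p = 0.2), and each of them differed from wild type with the smallest possible p of 0.1 in an exact permutation test.

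The CLF to EZ1 ratio was 1.74, 1.9 and 2.04 in wild type, 1.55, 1.81 and 1.55 for EM1084, and 2.25, 1.89 and 1.59 for the complemented line. All genotypes overlapped, and a difference among them was not detected (exact permutation p = 0.318). CLF was the more abundant methyltransferase transcript in each of the 9 libraries.

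**Figure D3:**
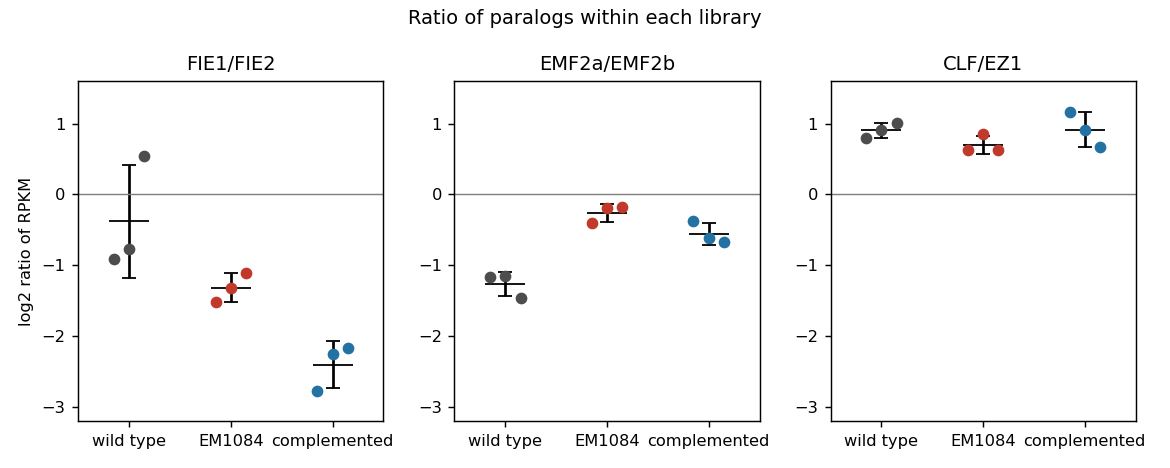
Log2 ratio of RPKM for the 3 pairs of PRC2 paralogs within each library, with points for libraries and bars for the mean ± SD of 3. FIE1/FIE2 steps down from wild type (mean -0.38) through EM1084 (-1.32) to the complemented line (-2.40), EMF2a/EMF2b is lowest in wild type (-1.27), and CLF/EZ1 overlaps in all genotypes.

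Summed over paralogs, the Esc-type pair gave 9.76 ± 1.17 RPKM in wild type, 33.1 ± 3.27 for EM1084 and 24.1 ± 2.77 for the complemented line. The Su(z)12-type pair gave 24.4 ± 1.41, 42.5 ± 0.557 and 34.1 ± 3.57, and the E(z)-type pair 14.5 ± 0.987, 42.4 ± 1.46 and 33.2 ± 1.05 RPKM. In wild type the Su(z)12-type sum exceeded the E(z)-type sum in every library, whereas in both other lines the sums were close to each other. As a share of all 6 genes, EMF2b took 35.5% ± 0.503 in wild type, 19.7% ± 1.45 for EM1084 and 22.2% ± 1.5 for the complemented line. FIE2 took 8.75% to 12.6%, 18.9% to 21.4% and 21.5% to 22.9% over the libraries of each genotype, while FIE1 took 8.85% ± 3.44, 8.02% ± 1.07 and 4.18% ± 0.989. EMF2a took 12.6% to 16.1%, 15.9% to 17.3% and 14.4% to 15.9%, and these ranges met or overlapped between genotypes.

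**Figure D4:**
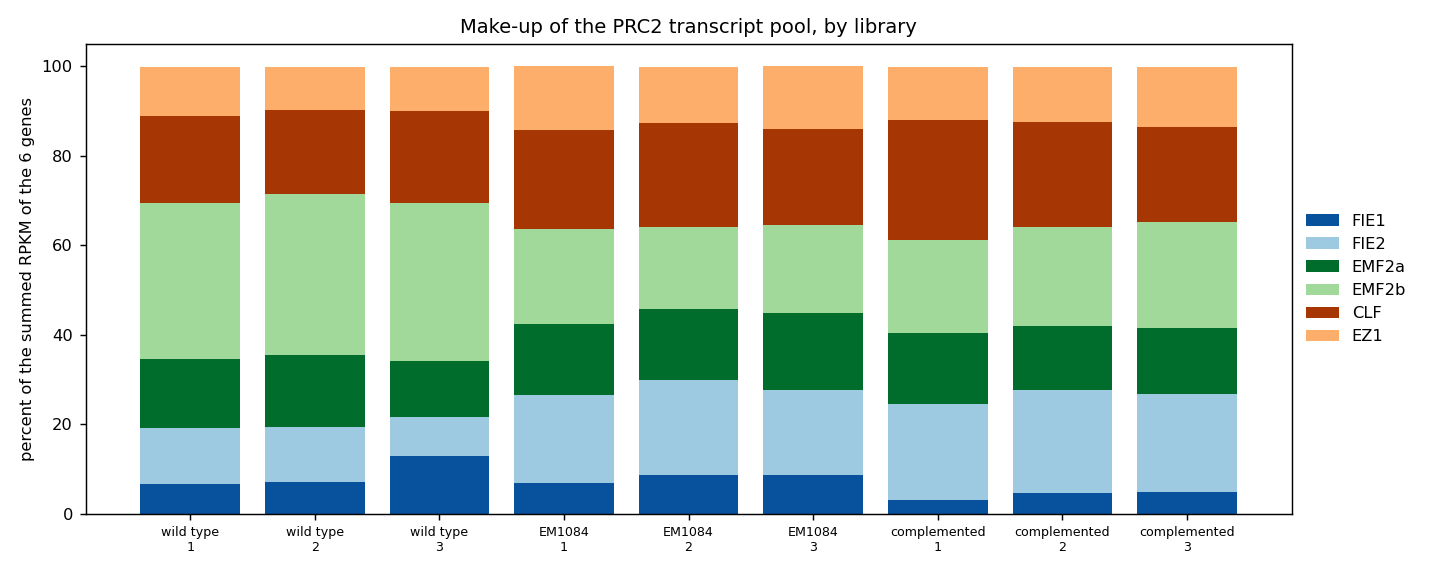
Percentage of the summed RPKM of the 6 PRC2 genes taken by each gene, with 1 stacked bar per library. EMF2b fills the largest part of the wild type bars (35.5% ± 0.503) and less of the others, FIE2 widens outside wild type, and FIE1 is narrowest in the complemented line (4.18% ± 0.989).

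Within 20 kb of FIE1 or FIE2 the table lists 4 other loci. The one between the pair, LOC_Os08g04280 on the same strand, read 3.71 ± 0.904 RPKM in wild type, 14.0 ± 1.81 for EM1084 and 9.51 ± 1.8 for the complemented line. It rose in EM1084 (log2 fold change 1.68, adjusted p = 7.1e-07), also under scaling by median ratios (0.45, adjusted p = 0.029). The complemented line was called lower than EM1084 at this locus (-0.52, adjusted p = 0.019), but not under scaling by median ratios (-0.12, adjusted p = 0.58). Against wild type the complemented line was called higher (1.16, adjusted p = 3.7e-05), but again not under that scaling (0.33, adjusted p = 0.1). Its changes from wild type were 0.61 and 0.43 above the median of all genes in EM1084 and the complemented line, next to 0.88 and 1.00 for FIE2 and -0.05 and -0.84 for FIE1. The other 3 loci were too low to be tested and reached at most 1.46 RPKM. Over all tested genes with a mean of at least 5 RPKM (7465 outside the members), the profile most like that of FIE1 across the 9 libraries was LOC_Os03g43840, at a root-mean-square distance of 0.196 on the centred log2 scale, followed by LOC_Os03g07600 at 0.197. LOC_Os03g43840 read 6.52, 5.68 and 8.6 RPKM in wild type, 13.9, 12.9 and 16.6 for EM1084 and 5.15, 6.58 and 7.0 for the complemented line. Distances of FIE1 to the other members ran from 0.464 for EMF2b to 0.829 for FIE2. LOC_Os03g43840 and LOC_Os03g07600 were picked as the nearest loci, so their smaller distances do not set FIE1 apart from the members. CLF was closest among the members to EZ1 (0.155) and EMF2a (0.169). The loci nearest to CLF outside the members, LOC_Os03g56300 (0.075) and LOC_Os04g33040 (0.081), were closer than either.

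Of 5 listed genes for accessory subunits, each rose in EM1084 by deposited RPKM, and 3 did after scaling by median ratios, with none lower, next to 82.7% and 31.4% of all genes higher. Their median log2 fold change was 1.76, next to 1.06 over all genes, and 1.24 next to 0.73 for the complemented line against wild type. MSI1 (LOC_Os03g43890), the WD40 histone-binding subunit of the PRC2 core, averaged 1.37 ± 0.536 RPKM in wild type, 9.23 ± 0.607 with EM1084 and 5.91 ± 0.971 with the complemented line. Its lowest wild type library was at 0.789 RPKM, so it passed the filter through the other lines and its values are given with no test. LOC_Os09g36900, with a wild type mean of 0.856 RPKM, also passed through the other lines. The counts and medians of this list include both genes and are therefore a description only.

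A further 9 listed genes read or erase the Polycomb mark or other histone methylation, or belong to the opposing trithorax group. Of these, 8 rose in EM1084, next to 82.7% of all genes, with a median of 0.99 near the 1.06 of all genes. Scaling by median ratios gave 2 higher and 4 lower of the 9, next to 31.4% and 27.4% of all genes. JMJ705 (LOC_Os01g67970), counted as higher both times, passed the filter only through EM1084. Its mean was 1.67 ± 0.232 RPKM there, against 0.349 ± 0.101 for wild type and 0.687 ± 0.0547 for the complemented line. The counts and the median of this list include JMJ705 and are a description only. LHP1 (LOC_Os10g17770), which binds the mark, read 6.74 ± 0.215, 21.1 ± 2.8 and 15.2 ± 1.68 RPKM in wild type, EM1084 and the complemented line. TRX1 (LOC_Os09g04890), a trithorax-type methyltransferase, read 5.97 ± 0.239, 15.3 ± 1.2 and 11.7 ± 1.46 RPKM. Both rose in EM1084 on RPKM as deposited (adjusted p = 7.9e-08 and 4.4e-07) and neither passed under scaling by median ratios (adjusted p = 0.12 and 0.72).

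DNA methylation genes were listed because the maternal expression of imprinted genes such as FIE1 is tied to DNA methylation in endosperm. Of 10 loci 6 were high enough to test, and all 6 of those rose in EM1084, 4 of them also under scaling by median ratios, next to 82.7% and 31.4% of all genes. Genes low in wild type passed the filter through the other lines, so these counts are a description. MET1b (LOC_Os07g08500), the maintenance methyltransferase, rose from 2.94 ± 1.14 RPKM in wild type to 19.6 ± 1.23 in EM1084, next to 12.3 ± 2.13 in the complemented line (log2 fold change 2.43 for EM1084, adjusted p = 7.5e-08; 1.23 under scaling by median ratios, adjusted p = 0.00019). DRM2 (LOC_Os03g02010), a de novo methyltransferase, read 1.1 ± 0.257, 7.77 ± 0.908 and 8.68 ± 1.06 RPKM, and with a wild type library at 0.855 RPKM it also passed the filter through the other lines.

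Known Polycomb targets of other organs, the KNOX and floral MADS-box genes and LFL1, were mostly near 0 in these seeds. Of 21 listed loci 20 were in the table and 14 of these were too low to test. The other 6 were called higher in both lines against wild type, but a gene that passes the filter only through the lines where it is high has to differ, so this count carries no weight. MADS13 (LOC_Os12g10540), an ovule identity gene, had a listed value of 0 for each wild type library and averaged 8.59 ± 2.53 RPKM for EM1084 and 14.8 ± 2.25 for the complemented line. MADS8 (LOC_Os09g32948), a floral organ gene, read 0.568 ± 0.602, 8.22 ± 0.595 and 11.8 ± 2.3 RPKM. LFL1 (LOC_Os01g51610), a flowering repressor known in rice as a target of PRC2 with EMF2b, read 0.159 ± 0.147, 2.86 ± 0.326 and 1.57 ± 0.199 RPKM.

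MADS-box genes of endosperm and seed gave 1 testable gene of 5 in the table. MADS29 (LOC_Os02g07430), a regulator of seed development, read 0.0782 ± 0.0817, 2.43 ± 0.526 and 1.79 ± 0.297 RPKM, and MADS6 (LOC_Os02g45770), a floral and endosperm gene, was listed at 0 in wild type and stood at 0.288 ± 0.237 and 0.203 ± 0.195 RPKM. Of 6 cell division genes 4 were tested and 3 rose in EM1084, with a median of 1.32, and 1 rose under scaling by median ratios, next to 82.7% and 31.4% of all genes. PCNA (LOC_Os02g56130), the replication clamp, read 5.17 ± 1.03, 13.9 ± 1.54 and 9.11 ± 1.6 RPKM, and its change in EM1084 under scaling by median ratios was 0.02 (adjusted p = 0.9). CDKB2;1 (LOC_Os08g40170), a mitotic kinase, read 1.24 ± 0.595, 6.29 ± 0.895 and 4.93 ± 0.342 RPKM, with a wild type library at 0.572 RPKM, so that it passed the filter through the other lines. The counts of cell division genes include it and are a description only.

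**Figure D5:**
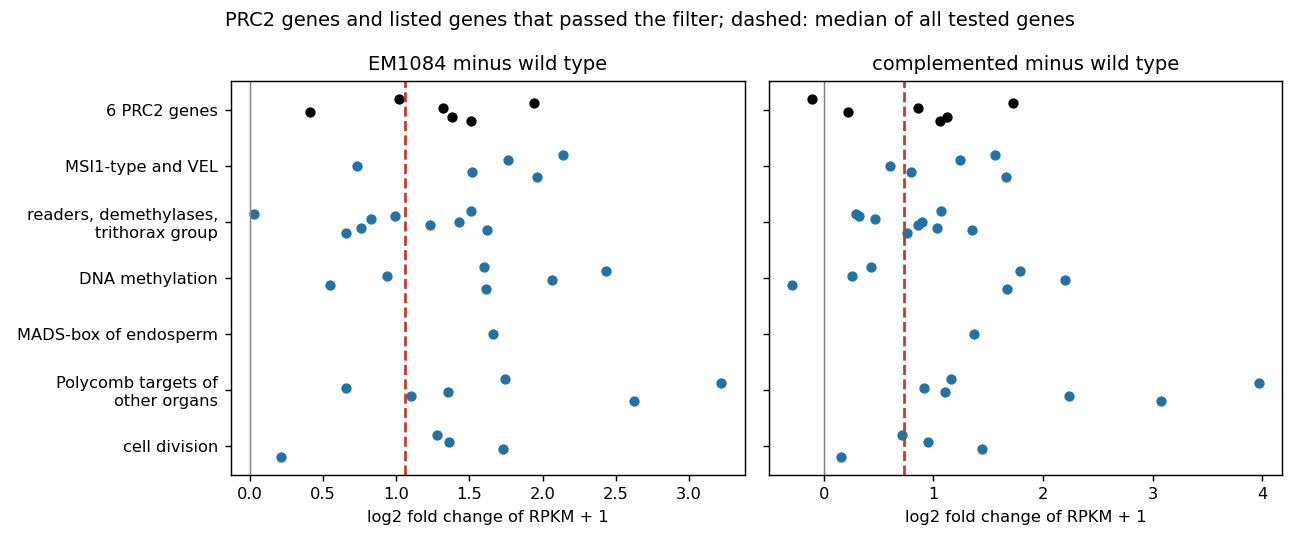
Log2 fold change of RPKM + 1 against wild type for the 6 PRC2 genes (black) and each tested gene of 6 lists (blue), for EM1084 and the complemented line, with the median of all tested genes dashed (1.06 and 0.73). EMF2b and, by only 0.05 in EM1084, FIE1 are the black points left of the dashed line. MADS13, at 0 RPKM in wild type, is the blue point farthest right. Like some other blue points, it passed the filter only through the other lines, so its position carries no weight.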

How the data were processed

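The authors deposited 1 table of RPKM values (reads per kilobase of transcript and mapped depth, per the file headers) with 1 column per library. Libraries were made from total RNA with a ScriptSeq v2 kit, per the labels' protocols. The aligner, counter, genome build, annotation and use of strand were not given in the sources used here. Mapped totals, transcript lengths and read numbers were derived from the steps of the RPKM values, and all 281367 values were whole reads within 0.001. The procedure and the limma fit were tested on simulated data. Intervals from reads cover counting error only.

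The 15450 genes with at least 1 RPKM in at least 3 libraries were tested with limma 3.58.1 (R 4.3.3, trend and robust) on log2(RPKM + 1), all 9 libraries in 1 fit, two-sided. P-values were adjusted by Benjamini-Hochberg over all tested genes, with a threshold of 0.05. This scale understates changes of low genes. Within-library ratios used log2 with a pseudocount of 0.1 and two-sided exact permutation tests. The series' design text calls the repeats biological, and no label ties equal repeat numbers together. The members and lists were chosen with earlier results of these data known.

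Member names came with the member list. Other names were assigned from general knowledge and printed where the RefSeq table (ASM3414082v1) has them on the same chromosome within 5 Mb (47 of 75 names, members included; of the members, EZ1). Listed genes are the 3 with the smallest joint adjusted p and the 2 most abundant per list. Some of these are not printed. No sequences are shown, because none of the files used here holds them.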

Additional observations from a re-analysis of the deposited data

How the results depend on the processing

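Scaling between libraries was the choice that mattered most. The calls of FIE2 against wild type in both lines, and of FIE1 between the complemented line and EM1084, held under all 16 alternatives. For EM1084 against wild type, scaling by median ratios gave log2 fold changes of -0.19 for FIE1, 0.03 for EMF2a, -0.94 for EMF2b, 0.06 for CLF and 0.25 for EZ1, quantile normalization gave -0.19 for FIE1, 0.13 for EMF2a, -0.72 for EMF2b and 0.21 for CLF, and totals outside abundant loci gave 0.22 for FIE1 and -0.48 for EMF2b. For the complemented line against EM1084 these were -0.06 for EMF2a, 0.14 for CLF and -0.06 for EZ1, then -0.03 for EMF2a, 0.27 for EMF2b, 0.19 for CLF and -0.05 for EZ1, then -0.14 for EMF2a, 0.06 for CLF and -0.13 for EZ1. Against wild type the complemented line gave -0.93 for FIE1, -0.03 for EMF2a, -0.72 for EMF2b, 0.2 for CLF and 0.19 for EZ1, then -0.95 for FIE1, 0.1 for EMF2a, -0.44 for EMF2b and 0.25 for EZ1, then -0.34 for EMF2b. The cause was not tested. Median-of-ratios scaling called 5709 genes between the complemented line and EM1084 against 8579 on RPKM as deposited, and quantile normalization called 8564 in EM1084 and 8003 in the complemented line against wild type, where RPKM as deposited gave 13604 and 12263.

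The pseudocount of 0.1 and limma-voom on derived reads changed no call of the members. CLF between the complemented line and EM1084 was -0.27 with no filter (adjusted p = 0.069) and -0.27 with a replicate block (adjusted p = 0.071). Leaving out 1 library moved it between -0.3 and -0.21. EMF2b moved between -0.29 and -0.1 in that comparison and between 0.12 and 0.31 against wild type. Over all tested genes, libraries of equal repeat number did not deviate together (correlations of deviations from the group means between -0.03 and 0.06). These correlations cover all genes together and do not speak for single ones. The FIE1 to FIE2 ratio was lowest in repeat 1 and highest in repeat 3 of each genotype. For FIE1 in EM1084 against wild type, the block lowered the SE from 0.23 to 0.17. With the block, permuting within repeat numbers, the largest differences between genotypes of 2.02 for log2 FIE1/FIE2 and 1.0 for log2 EMF2a/EMF2b no longer passed (both adjusted p = 0.0833, exact permutation). Permuting within repeat numbers allows far fewer splits, so its smallest possible p is larger. A single ratio at that smallest p could not pass after adjustment over 3 ratios, whereas both together at it would have passed. The loss was therefore not fixed in advance, and the calls of both ratios depend on whether repeat numbers are treated as blocks. Both ratios passed without any 1 library.

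Depth limits the FIE pair most, with 55 to 66 derived reads of FIE1 per wild type library and 53 of FIE2 in wild type 3. FIE1 against wild type in the complemented line moved between -0.3 and 0.16 without 1 library and was never called on RPKM as deposited.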
